A study of Homo sapiens with 19 samples.

Results

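Re-expression of HIF-1α in 786-O cells was followed by 2014 HIF-1β binding sites that were not called in the control cells and at which no HIF-α subunit was called in any cell pool. They are 34.7% of the 5807 HIF-1β windows listed for the HIF-1α re-expressing cells, and belong to 29309 peak windows in all 7 lists of the series. They were chosen by position alone. Of the 5807 windows, 2467 shared at least 1 base with a HIF-1β window of the control cells, and of the 3340 that did not, 1326 shared a base with a window of HIF-1α or HIF-2α from one of the 4 HIF-α lists. The remainder are called below the sites gained without HIF-α. Since the absence of control HIF-1β and of HIF-α was the rule, it is not a finding, and a window absent from a list may hold signal just below the authors' threshold, because the lists give no score or signal.

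The 786-O line, derived from a renal clear cell tumour, lacks functional VHL, the protein that marks HIF-α subunits for destruction, and its endogenous HIF-1α transcripts are truncated, so every pool carried stabilised endogenous HIF-2α. Pools of cells, not single clones, were infected with an empty pRRL virus (control cells), pRRL-HIF-1a (HIF-1α re-expressing cells) or pRRL-HIF-2a (HIF-2α overexpressing cells), from a vector that also makes EGFP, and the labels name no hypoxic exposure. Chromatin was immunoprecipitated with 1 library per antiserum and pool, and gene expression was measured by RNA-seq in 3 libraries per pool, with totals of 27852754 to 54287621 counts. Among the markers of the line, VIM ranged from 3963 to 5671 CPM (the count scaled to the size of its library) and the renal factor PAX8 from 175 to 364 CPM over the 9 libraries, while PTPRC of leukocytes stayed at or below 0.0853 CPM, PECAM1 of endothelium at or below 0.838 CPM and ALB of hepatocytes at or below 0.217 CPM. COL1A1 of fibroblasts lay between 0.724 and 7.58 CPM. Other listed markers of the line were KRT8 (289 to 603 CPM), CDH2 (204 to 388 CPM) and KRT18 (84.9 to 212 CPM). PAX2 (8.53 to 26.7 CPM) and EPCAM (3.07 to 11.6 CPM) were lower. CA9, the last of that list, had 0, 0.171 and 14.3 CPM in the control cells and 0.120, 0.105 and 0.694 CPM in the overexpressing cells. It had 8.46, 177 and 68.3 CPM in the re-expressing cells.

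HIF-1β, the product of ARNT, is the constitutive partner with which HIF-1α or HIF-2α binds DNA as a heterodimer at hypoxia response elements (HREs), whose core reads ACGTG or GCGTG. The same subunit also pairs with other proteins of the bHLH-PAS family, among them the aryl hydrocarbon receptor AHR, the SIM proteins and NPAS proteins. HIF-1α is known for binding near promoters, many of which lie in CpG islands, stretches of DNA with a high density of unmethylated CpG dinucleotides where GC boxes bound by SP and KLF factors are common.

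The sequence at the windows is shown first for the 4 that held the most HRE cores in the 300 central bases, as the cases richest in the motif. Each stretch is the plus strand of GRCh37 (hg19), 5′ to 3′, within 150 bp of the window's midpoint and outside every annotated exon, and capitals mark HRE cores. A core on the minus strand reads as the reverse complement, CACGT or CACGC.
LAMP1, chr13:113951362-113951481: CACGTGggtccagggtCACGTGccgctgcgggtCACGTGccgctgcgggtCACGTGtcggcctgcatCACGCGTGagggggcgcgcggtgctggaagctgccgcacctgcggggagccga
GET4, chr7:916025-916144: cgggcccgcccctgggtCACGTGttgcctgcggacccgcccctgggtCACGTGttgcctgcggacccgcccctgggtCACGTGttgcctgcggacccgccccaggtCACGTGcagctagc
KCNIP2, chr10:103590585-103590704: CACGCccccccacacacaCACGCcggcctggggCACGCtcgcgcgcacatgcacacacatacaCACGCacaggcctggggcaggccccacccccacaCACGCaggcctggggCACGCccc
SORCS3, chr10:106400213-106400332: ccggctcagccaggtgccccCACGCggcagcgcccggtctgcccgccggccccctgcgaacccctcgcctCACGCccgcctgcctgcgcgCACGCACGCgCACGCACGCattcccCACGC

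The window at LAMP1, which encodes a lysosomal membrane protein, held 14 cores in its 300 central bases, and that at GET4, a gene of tail-anchored protein insertion, also held 14. Both stretches held the palindrome CACGTG 4 times, in copies that repeat with their neighbouring bases, and each copy counts as 2 cores because it reads as a core on both strands. The windows at KCNIP2 (12 cores) and SORCS3 (11 cores) held GCGTG on the minus strand, written CACGC here. The stretches at LAMP1 and SORCS3 lay between annotated genes, that at GET4 in an intron of SUN1 and that at KCNIP2 in an intron of KCNIP2 itself. These 4 are extremes. No core was found in 681 of the 2014 windows, 1 in 608, 2 in 410, 3 in 172, 4 in 79 and 5 or more in 64.

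A second group of stretches is shown from windows at genes whose expression is described further on, and these hold fewer cores.
MAP3K15, chrX:19533627-19533746: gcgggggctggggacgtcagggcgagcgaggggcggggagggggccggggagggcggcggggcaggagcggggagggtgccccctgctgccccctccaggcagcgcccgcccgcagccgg
PRUNE2, chr9:79521156-79521275: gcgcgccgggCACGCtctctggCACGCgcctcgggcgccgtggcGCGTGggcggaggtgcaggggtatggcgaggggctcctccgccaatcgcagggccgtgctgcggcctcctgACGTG
PLEKHH1, chr14:68000116-68000235: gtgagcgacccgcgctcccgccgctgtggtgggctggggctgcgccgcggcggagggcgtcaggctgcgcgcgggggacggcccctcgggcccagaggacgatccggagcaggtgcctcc
DGCR5, chr22:18958398-18958517: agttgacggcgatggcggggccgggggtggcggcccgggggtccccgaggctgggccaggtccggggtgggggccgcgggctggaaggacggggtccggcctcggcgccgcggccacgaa
GSTP1, chr11:67351316-67351435: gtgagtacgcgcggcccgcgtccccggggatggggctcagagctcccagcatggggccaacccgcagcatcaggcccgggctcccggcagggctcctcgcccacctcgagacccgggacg
ARNTL, chr11:13299700-13299819: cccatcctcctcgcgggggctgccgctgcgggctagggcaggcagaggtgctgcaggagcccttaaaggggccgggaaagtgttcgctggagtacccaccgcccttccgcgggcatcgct
AHRR, chr5:321567-321686: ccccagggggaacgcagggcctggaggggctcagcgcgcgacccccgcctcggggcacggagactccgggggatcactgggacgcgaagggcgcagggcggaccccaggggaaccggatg

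Of these 7 windows, that at PRUNE2 held 4 HRE cores in the central 300 bases and the other 6 held none. Their GC content was between 70.3% and 79.3%. The ARNTL window (ARNTL, now also named BMAL1, encodes a clock protein of the HIF-1β family) had 24 CpG and the PLEKHH1 window 44. The stretches at MAP3K15 and PRUNE2 lay between annotated genes, and those at PLEKHH1, DGCR5, GSTP1 and ARNTL in introns of those genes, with TMEM229B also spanning that at PLEKHH1. The AHRR window, near the start of the gene for the AHR repressor and in an intron of the read-through gene PDCD6-AHRR, had a GC content of 77.3% with 33 CpG. Absence of these letters says only that they are not in this stretch.

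The sites gained without HIF-α mostly lay at annotated promoters. An annotated start site of transcription was found at most 5 kb from the midpoint of 1920 of 2014 windows (95.3%, 95% Wilson interval 94.3% to 96.2%) and at most 1 kb from that of 1858 (92.3%, interval 91.0% to 93.3%). The median distance was 110 bp, with quartiles of 36 and 263 bp, and the median position was 16 bp downstream of the start site. Intervals here and below cover counting error over windows only, and with 1 library per antiserum and pool the comparisons of windows carry no p-value.

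3 other sets of HIF-1β windows were measured in the same way. The first holds 1231 windows of the re-expressing cells that were also absent from the control list but shared a base with a HIF-1α window (gained with HIF-1α). The second holds 226 windows of the re-expressing cells that were shared with the control cells and had no HIF-α (kept without HIF-α). The third holds 1289 windows of the control cells without HIF-α that were not called in the re-expressing cells (control only). Of the sites gained with HIF-1α, 98.6% had a start site at most 5 kb away, and the share of sites gained without HIF-α differed from it by −3.29 percentage points (Newcombe interval −4.42 to −2.11). The share was 81.4% for sites kept without HIF-α and 47.9% for the control-only sites, and the difference from the latter was 47.5 points (interval 44.6 to 50.3). Windows without HIF-α thus differed between the pools, with nearly all of the gained ones, and under 50% of the control-only ones, at that distance from a start site.

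**Figure D1:**
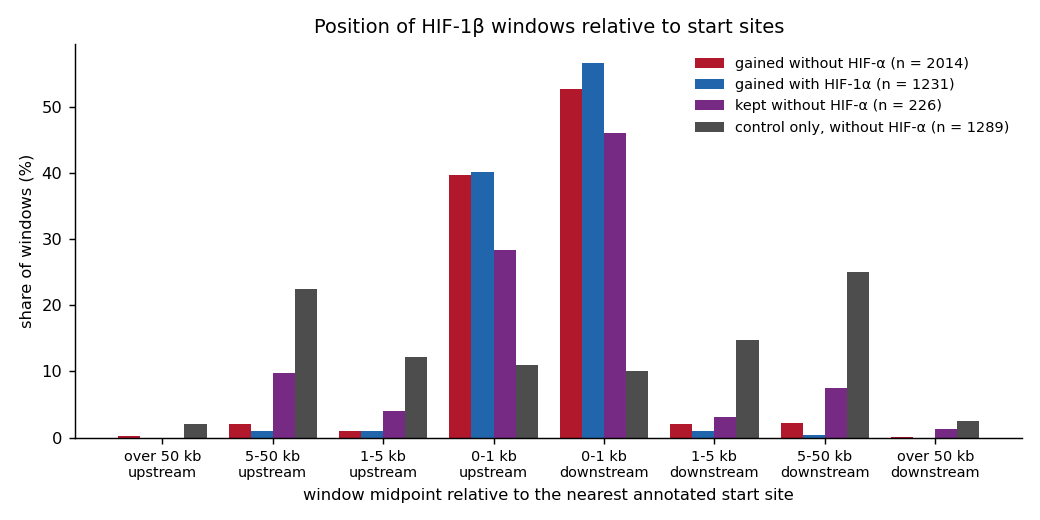
Share of windows (%) by distance and side of the window midpoint from the nearest annotated start site, for the 4 sets of HIF-1β windows. Sites gained without HIF-α fell within 1 kb downstream in 52.6% and within 1 kb upstream in 39.7% of cases, while control-only sites fell there in 10.0% and 11% of cases.

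The nearest start site belonged to a protein-coding gene for 1753 windows (87.0%), to a lncRNA gene for 201 (9.98%), to a pseudogene for 34 (1.69%) and to a small RNA gene for 22 (1.09%). The protein-coding share of the sites gained with HIF-1α was 87.3%, with a difference of −0.29 points (interval −2.61 to 2.13). Start sites on both strands lay within 1 kb of the midpoint at 28.6% of the sites gained without HIF-α against 38.2% of those gained with HIF-1α, a difference of −9.63 points (interval −12.99 to −6.28). Whether these start sites point away from each other, as at a bidirectional promoter, was not examined. By chromosome, 1.54 windows were found per 100 protein-coding start sites on Y, 4.16 on X and 6.63 to 14.3 on the autosomes. On X lay 36 of these windows (1.79%) and 8 of the sites gained with HIF-1α (0.65%). The density was 6.76 on chromosome 7, which held 63 of these windows but 101 of the sites gained with HIF-1α, and 13.01 on chromosome 6, which held 136 and 45.

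The nearest excluding window lay 18 bp from the edge of the window at MYBL2, a cell cycle transcription factor gene, 19 bp from that at BRI3 and 26 bp from that at RNU6-853P. Just outside, the windows at MAFK, a small MAF factor gene, and at LBHD2 were left out for a shared stretch of 48 and 59 bases, and one on chromosome 19 for 57 bases. An excluding window lay within 1 kb of 32 windows (1.59%) and within 10 kb of 262 (13%). The median distance to a HIF-α window was 77.1 kb. The number of sites depends on what counts as shared, since it was 3292 in place of 2014 when only windows with midpoints at most 250 bp apart did.

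HIF-1β of the HIF-2α overexpressing cells was not part of the rule, and it was called at few of the gained sites. Of the 2014 windows, 84 shared a base with a HIF-1β window of those cells (4.17%, interval 3.38% to 5.13%; 2.33% when shared meant midpoints at most 250 bp apart), among them the GET4 window shown above and windows at RHOB, BAX, BSG and ZEB1, named after the values were seen. The share was 14.5% for sites gained with HIF-1α, a difference of −10.4 points (interval −12.6 to −8.28). It was 26.5% for sites kept without HIF-α and 16.0% for control-only sites, which had HIF-α windows removed in the same way, with differences of −22.4 points (interval −28.5 to −17.0) and −11.8 points (interval −14.1 to −9.68). The rule had removed windows with HIF-2α of the overexpressing cells from all sets but the sites gained with HIF-1α. Sites kept without HIF-α and control-only sites were chosen for a control HIF-1β window, and both gained sets for its absence. The differences from the kept and control-only sites may in part be set by that choice. The HIF-1β list of the overexpressing cells was also the shortest, with 3431 windows against 5807 in the re-expressing and 6572 in the control cells. Within the sites gained without HIF-α, the share was 4.65% with an HRE core and 3.23% without one, a difference of 1.42 points whose interval (−0.48 to 3.09) included 0. It was 4.09% within 1 kb of a start site and 5.13% farther away, a difference of −1.04 points (interval −5.77 to 1.66). Whether signal below the threshold was present at the other 1930 windows was not tested.

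**Figure D2:**
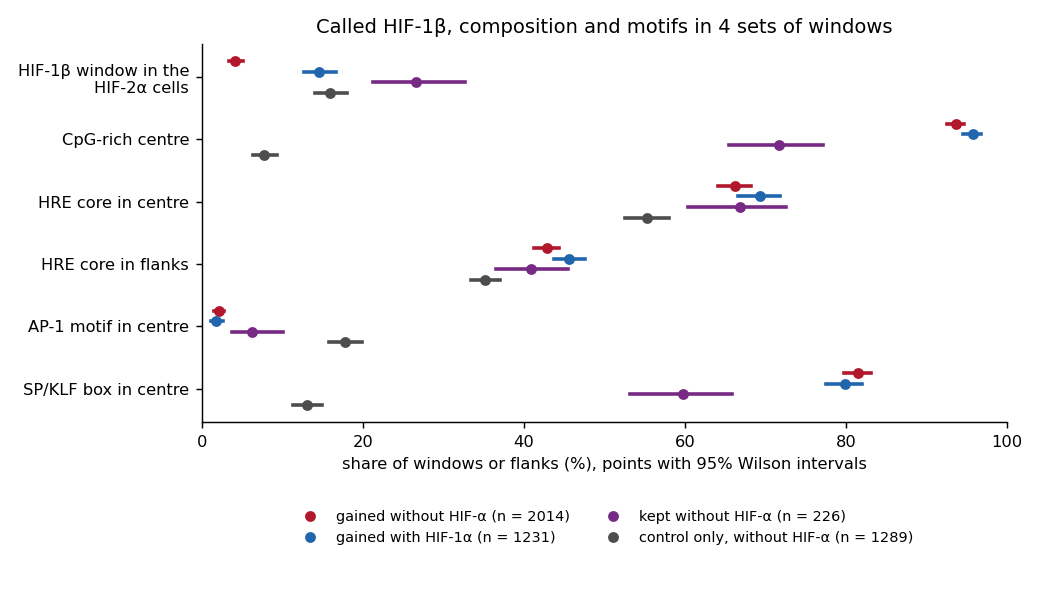
Share (%) of windows, or of their flanks, with each feature for the 4 sets, as points with 95% Wilson intervals. Sites gained without HIF-α (n = 2014) had the lowest share with a HIF-1β window in the HIF-2α overexpressing cells, 4.17%, and lay close to the sites gained with HIF-1α in CpG-rich centres (93.7% and 95.8%) and SP/KLF boxes (81.5% and 79.9%).

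The centres of the gained sites were CpG-rich. The median GC content of the 300 central bases was 74.3%, against 49.0% in flanks of equal length centred 1000 bp to either side, and the median number of CpG was 37 against 7. A CpG-rich centre, with a GC content of at least 50% and at least 0.6 of the CpG predicted from base composition, was found in 1888 windows (93.7%, interval 92.6% to 94.7%). The share was 95.8% for sites gained with HIF-1α, 71.7% for sites kept without HIF-α and 7.76% for control-only sites. Among 14422 protein-coding start sites in no window of any list it was 48.4%, and the gained sites were 45.4 points higher (interval 43.9 to 46.6). Over all 20113 protein-coding start sites, in a window or not, it was 59.0% (interval 58.3% to 59.7%).

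An HRE core was present in the central bases of 1333 windows (66.2%, interval 64.1% to 68.2%), and in 42.8% of the flanks, a difference of 23.4 points (interval 20.8 to 25.9). Of 35116 RefSeq promoters of the same length (GRCh38.p14, both strands searched), 48.4% held one. The share in sites gained with HIF-1α was 69.3%, and its difference from the sites gained without HIF-α, −3.11 points, had an interval that included 0 (−6.38 to 0.22). Both HRE cores contain a CpG, so the number of cores was also set against the number of CpG. On that scale the order of centres and flanks turned around: 3.72 cores per 100 CpG lay in the centres (interval 3.54 to 3.90) and 7.31 in the flanks (interval 6.99 to 7.64). The same order held for centres and flanks of sites gained with HIF-1α (3.95 and 7.18), sites kept without HIF-α (5.57 and 7.37), all HIF-1α windows (5.78 and 7.49) and protein-coding start sites in no window (4.85 and 8.18). Each core also holds a T beside its CpG, so this scale depends on base composition. The median GC content of the sites gained without HIF-α was 74.3% in the centres and 49.0% in the flanks. The part of composition in this order was not tested.

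Control-only sites had the opposite order. Their centres held 14.3 HRE cores per 100 CpG (interval 13.3 to 15.3), more than the 11.1 of their flanks (interval 10.4 to 11.7). The median GC content of these sites was 51% in the centres and 48% in the flanks. In the centres, the interval of the sites gained without HIF-α overlapped with that of the sites gained with HIF-1α (3.73 to 4.17) and lay below those of the sites kept without HIF-α, all 5147 HIF-1α windows and the start sites in no window.

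**Figure D3:**
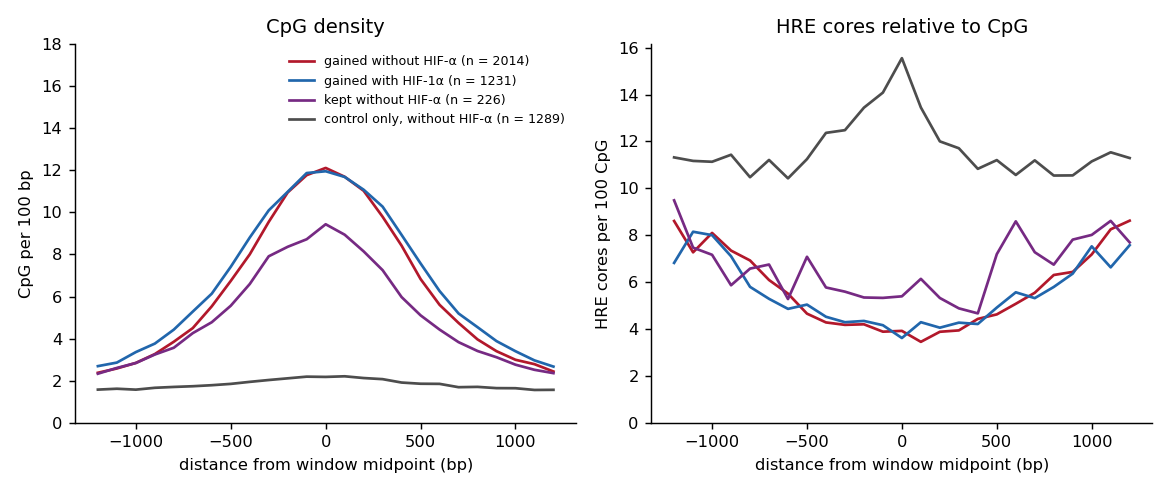
CpG per 100 bp (left) and HRE cores per 100 CpG (right) in bins of 100 bp against the distance from the window midpoint (bp), as lines for the 4 sets. For sites gained without HIF-α the CpG density rose to 12.1 at the midpoint, where HRE cores per 100 CpG were 3.92, while the control-only sites rose in HRE cores per CpG at the midpoint.

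The HRE core was then compared at equal CpG content. With 30 to 39 CpG in the centre, 505 of 737 windows held a core (68.5%, interval 65.1% to 71.8%), against 66.1% of protein-coding start sites in no window (interval 64.1% to 68.1%) and 74.5% of HIF-1α windows (interval 71.9% to 76.9%). The first 2 intervals overlapped, and that of all HIF-1α windows lay above both. Sites gained with HIF-1α were close to the sites gained without HIF-α here, at 69.6% (interval 65.4% to 73.5%). With 20 to 29 CpG the shares were 66.5% without HIF-α, 66.4% for sites gained with HIF-1α, 64.4% at start sites in no window and 71.1% in all HIF-1α windows. With 40 or more CpG the share was 66.8% in the sites gained without HIF-α (interval 63.4% to 70.0%), 59.0% at start sites in no window (interval 55.9% to 62.0%) and 75.3% in HIF-1α windows (interval 71.9% to 78.5%). Here the first interval lay above that of the start sites in no window and below that of the HIF-1α windows. It overlapped with that of the sites gained with HIF-1α, whose share was 72.6% (interval 68.2% to 76.6%). It also overlapped with that of all protein-coding start sites, in a window or not, at 65.7% (interval 63.8% to 67.5%). With 30 to 39 CpG that wider set held a core in 69.8% (interval 68.3% to 71.3%). The start sites in no window were picked for lacking a window of any list, and the part of that choice in their share was not tested. With under 10 CpG, where only 65 of the sites gained without HIF-α fell, their share was 44.6%. It was 29.3% at start sites in no window and 46.0% in HIF-1α windows. In CpG-rich centres alone, 67.4% of the sites gained without HIF-α held a core, beside 73.3% of all HIF-1α windows and 76.1% of all control HIF-1β windows. Start sites in no window with such a centre held one in 63.2%, a difference of 4.13 points (interval 1.70 to 6.5), and sites gained with HIF-1α in 70.1%, a difference of −2.69 points whose interval (−6.02 to 0.70) included 0. All protein-coding start sites with such a centre, in a window or not, held one in 66.3% (interval 65.4% to 67.1%). That interval overlapped with the 65.2% to 69.5% of the sites gained without HIF-α.

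**Figure D4:**
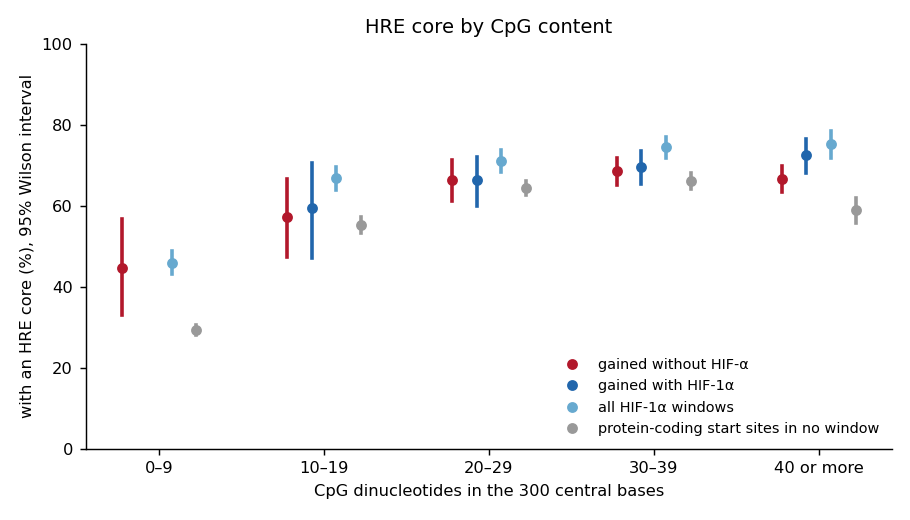
Share (%) with an HRE core in the 300 central bases by number of CpG there, with 95% Wilson intervals, for sites gained without HIF-α, sites gained with HIF-1α, all HIF-1α windows and protein-coding start sites in no window. Bins with few windows of a set are left out, and at 30 to 39 CpG the 68.5% of the sites gained without HIF-α lies close to the 66.1% of start sites in no window. At 40 or more CpG these shares were 66.8% and 59.0%, with intervals that did not overlap. All protein-coding start sites, in a window or not, are not drawn and held a core in 65.7% there.

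Some other motifs, AP-1 and the GC box among them, also differed from the control-only sites. The AP-1 motif (TGACTCA or TGAGTCA), bound by FOS and JUN proteins, was found in 42 of the gained windows (2.09%, interval 1.55% to 2.81%), less than the 3.72% of their flanks and the 4.95% of RefSeq promoters. It was found in 17.8% of control-only sites, a difference of −15.7 points (interval −17.9 to −13.6), and in 1.71% of sites gained with HIF-1α. The GC box GGGCGG was present in 1642 gained windows (81.5%, interval 79.8% to 83.2%), in 18.6% of their flanks, 45.0% of RefSeq promoters and 13% of control-only sites. The ETS motif CCGGAAG was found in 9.63% of gained windows against 13.1% of sites gained with HIF-1α, a difference of −3.45 points (interval −5.78 to −1.21), and in 10.3% of RefSeq promoters.

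Of motifs that overlap with the HRE core, the E-box CACGTG, bound by MYC, USF and CLOCK-ARNTL proteins, was found in 157 gained windows (7.80%) and in 7.26% of RefSeq promoters. Control-only sites held it in 8.92%, a difference of −1.13 points whose interval (−3.13 to 0.78) included 0. The sequence TNGCGTG, the core of the xenobiotic response element of AHR with HIF-1β, was found in 156 (7.75%, interval 6.66% to 9.0%), in 6.38% of the flanks and in 5.51% of RefSeq promoters. It contains a CpG, and the median number of CpG was 37 in the centres and 7 in the flanks. Its share in sites gained with HIF-1α was 7.55%, a difference of 0.19 points (interval −1.75 to 2.03), and in control-only sites 6.36%, a difference of 1.38 points (interval −0.44 to 3.12). The CCAAT box was less frequent in the gained centres, 16.0%, than in their flanks, 29.5%, and in RefSeq promoters, 34.6%. All motifs were searched on both strands, and none of the 15 searched was found in 69 of the windows (3.43%). Only the HRE core was set against CpG content, and the part of base composition in the differences of the other motifs was not tested.

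The 1920 windows within 5 kb of a start site lay at 1903 different genes, of which 1710 were in the count table and 1664 passed the filter on low counts and were tested. Most of these genes were expressed in all cell pools, with and without re-expressed HIF-1α. In CPM per kb of exon, the median over the 1710 genes was 4.63, 5.03 and 5.04 in the control libraries in order of level, 5.09, 5.11 and 5.34 in the HIF-1α re-expressing libraries, and 5.13, 5.13 and 5.17 in the HIF-2α overexpressing libraries. Medians over all protein-coding genes ranged from 1.36 to 1.76, and over protein-coding genes with a start site in no window from 0.0978 to 0.219. At least 1 CPM per kb was reached by 80.8% to 82.4% of the genes in the control libraries and by 84.9% to 85.5% in the re-expressing ones. Over all protein-coding genes these shares were 52.6% to 52.9% and 54.1% to 55.2%, and over those with a start site in no window 37.8% and 38.8% to 40.1%, so they were higher there as well. Genes at sites gained with HIF-1α had a higher median, 7.03 to 7.61 over the libraries.

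No gene passed the threshold of 0.05 for the adjusted p in either direction after re-expression of HIF-1α in edgeR's quasi-likelihood test without a replicate block (0% of 14225 genes higher and 0% lower, smallest adjusted p = 0.149), so none of the 1664 genes at these sites did. At an unadjusted p under 0.05, 206 of them were higher (12.4%, beside 11.1% of all genes) and 133 lower (7.99%, beside 8.23%). DESeq2 called 75 higher (4.51%, beside 3.44% of all genes) and 30 lower (1.80%, beside 1.89%). Libraries with the same replicate number deviated together, and with the replicate number as a block edgeR called 5.41% of all genes higher and 2.55% lower. At the sites gained without HIF-α it called 112 of 1664 genes higher (6.73%) and 34 lower (2.04%), shares near those of all genes. The median log2 fold change was 0.04 without and 0.06 with the block, beside 0.04 and 0.04 over all genes tested. These counts rested on single libraries: with the block, no gene was called without replicate 2 of the re-expressing cells, without replicate 2 or 3 of the control cells, or without replicate 1 of the overexpressing cells, while 185 genes at these sites were called higher and 115 lower without replicate 1 of the control cells.

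By the rule for naming genes (the largest changes with the block, at least 5 CPM, no overlap between the 3 libraries of both groups), 10 genes at these sites that rose and 8 that fell are described, with values from the blocked edgeR fit. MAP3K15, a kinase of the MAP kinase cascade, had 2.35, 16.1 and 5.03 CPM in replicates 1, 2 and 3 of the re-expressing cells, 0.44, 0.284 and 0.156 CPM in the control cells and 0.361, 1.74 and 0.617 CPM in the HIF-2α overexpressing cells. The re-expressing libraries lay above all others, and the log2 fold change was 4.29 (SE 0.63, adjusted p = 0.0283, edgeR with the block). For PRUNE2, which encodes a BCH-domain protein, the re-expressing cells had 21, 35.4 and 59 CPM and the control cells 6.29, 8.68 and 6.46 CPM. Its log2 fold change was 2.34 (SE 0.31, adjusted p = 0.0264, edgeR), and its window, shown above, held 4 HRE cores. ERMP1, an endoplasmic reticulum peptidase, had 87.1, 163 and 217 CPM against 45.3, 35.2 and 43.8 CPM, a log2 fold change of 1.89 (SE 0.32, adjusted p = 0.0315, edgeR). In these 3 genes every re-expressing library was above every control library, as the rule required. ALDH1L2, a mitochondrial enzyme of folate metabolism, had 58.6, 16.4 and 24.5 CPM in the re-expressing cells and 14.4, 3.41 and 3.93 CPM in the control cells. Its levels also differed by replicate number, with the highest value of each pool in replicate 1. SSPN, of the dystrophin complex, reached 49.8 CPM in replicate 3 but 8.55 and 7.24 CPM in the other two, against 5.2, 1.71 and 4.82 CPM in the control cells.

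The remaining 5 genes that rose were DENND2A, a regulator of Rab GTPases, MYO9A, an unconventional myosin, PLEKHH1, OLFML2A and the zinc finger gene ZNF292. Their log2 fold changes ran from 1.77 for ZNF292 to 2.45 for DENND2A, with adjusted p between 0.0283 and 0.0365 (edgeR with the block). ZNF292 had 41.5, 98.6 and 64.4 CPM in the re-expressing cells, 20.1, 28.2 and 11.5 CPM in the control cells and 21.6, 46.4 and 22.5 CPM in the overexpressing cells, where its log2 fold change was 0.57 (adjusted p = 0.344, edgeR with the block). In DENND2A, replicate 3 of the re-expressing cells, 33.6 CPM, stood above the other two at 4.73 and 5.14 CPM, and the highest control library had 4.27 CPM. The windows at MAP3K15, DENND2A, PLEKHH1, OLFML2A and ERMP1 held no HRE core in the central bases, those at SSPN and MYO9A held 1, and those at ALDH1L2 and ZNF292 held 2.

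GSTP1, a glutathione transferase that detoxifies electrophiles, was among the genes that fell. It had 67.5, 75.9 and 35.9 CPM in the re-expressing cells, 112, 169 and 139 CPM in the control cells and 172, 109 and 170 CPM in the overexpressing cells, and its log2 fold change after re-expression of HIF-1α was −1.25 (SE 0.31, adjusted p = 0.0452, edgeR with the block). The lncRNA DGCR5 had 10.7, 10.3 and 8.6 CPM against 21, 27.1 and 35.2 CPM, a log2 fold change of −1.45 (SE 0.25, adjusted p = 0.0315, edgeR). DANCR, another lncRNA that also hosts small nucleolar RNAs, had 25.8, 15.4 and 16.7 CPM against 36.6, 43.8 and 46.8 CPM. In each of these 3 genes the re-expressing libraries all lay below the control libraries. NDUFAB1, the mitochondrial acyl carrier protein and a subunit of respiratory complex I, had 50.4, 33.2 and 48.7 CPM in the re-expressing and 86.5, 81.2 and 91.2 CPM in the control cells, a log2 fold change of −0.99 (SE 0.17, adjusted p = 0.0315, edgeR). MRPL20 of the mitochondrial ribosome, the glycogenin gene GYG1, RAB35 of endocytic recycling and SPATA33 fell by 1.08, 1.12, 1.03 and 0.98 on the log2 scale, with adjusted p between 0.0352 and 0.0439 (edgeR with the block). The strand setting of the authors' counting was not given in the sources used here, so reads of overlapping antisense transcripts may be included in these values.

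**Figure D5:**
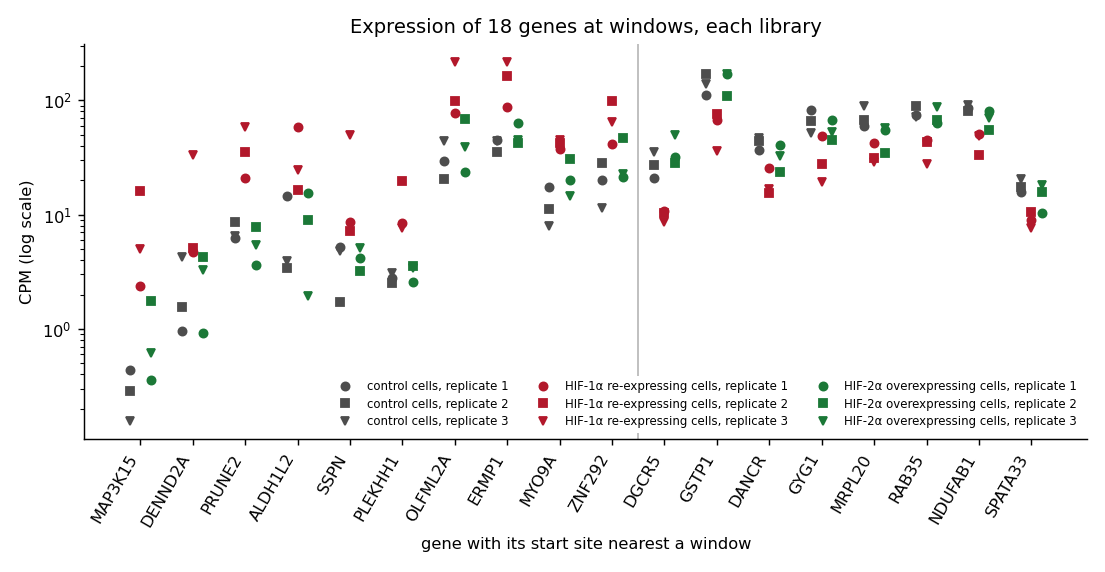
CPM (log axis) of the 18 named genes in each library, 3 per cell pool with a marker shape per replicate number, genes that rose left of the grey line and genes that fell right of it. The control and re-expressing libraries do not overlap for any of the 18 genes, by the rule, and MAP3K15 spans 0.156 CPM in a control library to 16.1 CPM in a re-expressing one.

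None of these 18 genes passed the threshold without the block, where their adjusted p was between 0.149 and 0.203 (edgeR). Of 21 or 22 alternative fits per gene, 1 to 6 passed, and none reversed a direction. In the HIF-2α overexpressing cells none of the 18 passed with the block (edgeR, adjusted p from 0.271 to 0.878). That comparison uses the same 3 control libraries. Without the block, 0% of all genes were called higher and 0% lower there, and at an unadjusted p under 0.05 edgeR found 65 genes at these sites higher (3.91%, beside 3.35% of all genes) and 34 lower (2.04%, beside 2.54%). With the block, edgeR called 0.112% of all genes higher and 0.155% lower, and at the sites gained without HIF-α it called 0 of 1664 nearest genes higher and 3 lower (0.180%). Without adjustment, 155 had a p under 0.05 in edgeR with the block and were higher (9.31%, beside 7.69% of all genes), and 98 were lower (5.89%, beside 6.84%). DESeq2 called 3 higher (0.180%, beside 0.246% of all genes) and 4 lower (0.240%, beside 0.176%).

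The 3 genes that fell there, named after their values were seen, were DCDC2, PTGER2 and SLCO2A1, and the last 2 encode a receptor and a transporter of prostaglandins. SLCO2A1 had 0.0241, 0.314 and 1.59 CPM in the overexpressing cells, 0.388, 1.22 and 10.5 CPM in the control cells and 2.11, 8.07 and 35 CPM in the re-expressing cells. In every pool it was lowest in replicate 1 and highest in replicate 3, and within each replicate number the order of the pools was the same. Its log2 fold change was −2.55 (SE 0.37, adjusted p = 0.0372, edgeR with the block) in the overexpressing cells and 2.27 (SE 0.32, adjusted p = 0.0264, edgeR with the block) in the re-expressing cells. PTGER2 had 1.56, 2.55 and 4.32 CPM in the overexpressing, 3.98, 9.19 and 21.6 CPM in the control and 6.42, 22.8 and 34.7 CPM in the re-expressing cells, with log2 fold changes of −1.84 (adjusted p = 0.0372) and 0.90 (adjusted p = 0.0614, edgeR with the block). DCDC2 had 7.87, 21.9 and 29.4 CPM in the overexpressing and 25.8, 77.1 and 88.2 CPM in the control cells, a log2 fold change of −1.70 (adjusted p = 0.0126, edgeR with the block).

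Of 20 targets listed, 1 had such a window within 5 kb of a start site (5%), and 19 had a HIF-1α window within 5 kb, a contrast that the rule itself sets because windows with HIF-α were removed. The exception was EGLN3, the HIF prolyl hydroxylase, at 1 of its annotated start sites 568 bp from a midpoint. EGLN3 had 78.4, 325 and 139 CPM in the re-expressing cells, 128, 205 and 171 CPM in the control cells and 356, 912 and 650 CPM in the overexpressing cells, with log2 fold changes of −0.11 (adjusted p = 0.782) and 1.83 (adjusted p = 0.0372) in edgeR with the block. EGLN3 is not among the 1664 genes counted above, which are those nearest to a midpoint, whereas the lists count every gene with any start site within 5 kb. Of all 22020 genes placed on the annotation, 10.0% had a gained site within 5 kb, and of the tested ones 14.9%. With the block, 6 of the 20 tested HIF targets were called higher and 0 lower after re-expression of HIF-1α, and their median log2 fold change was 0.96. Over all genes tested, 5.41% were called higher and 2.55% lower with the block, and the median was 0.04. Without the block 0 of these targets were called in either direction.

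Among 15 HIF subunits and bHLH-PAS partners of HIF-1β, AHRR and ARNTL had a gained site within 5 kb. AHRR, the repressor of AHR, had 2.99, 1.47 and 2.81 CPM in the re-expressing and 2.48, 1.1 and 2.45 CPM in the control cells, and ARNTL 20.6, 11 and 9.2 and 16, 9.96 and 9.15 CPM. The groups overlapped in both genes, with adjusted p of 0.564 and 0.631 (edgeR with the block). Of the whole list, 13 genes were tested and 2 were called higher and 0 lower with the block, beside 5.41% and 2.55% of all genes. Without the block 0 of the 13 were called. HIF1A, to which reads of the viral cDNA may also be counted, had 171, 1682 and 473 CPM against 30.4, 36.7 and 152 CPM (log2 fold change 3.12, adjusted p = 0.0418, edgeR with the block). AHR, the ligand-activated partner of HIF-1β, had 150, 127 and 172 CPM in the re-expressing cells, 63.7, 87.7 and 77.6 CPM in the control cells and 53.5, 75.5 and 83.9 CPM in the overexpressing cells. Its re-expressing libraries lay above all others, with a log2 fold change of 0.98 (SE 0.19, adjusted p = 0.0358, edgeR with the block; 0.149 without it). ARNT itself had 37.1, 47 and 69.9 CPM against 38.6, 42.6 and 33.1 CPM, with overlapping groups and a log2 fold change of 0.40 (adjusted p = 0.250, edgeR with the block).

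Of 8 AHR targets, AHRR alone had a gained site within 5 kb, and none of the 7 tested was called in either direction with or without the block (edgeR). CYP1B1, a cytochrome P450 under AHR control, had 156, 90.9 and 205 CPM in the re-expressing and 91.9, 167 and 358 CPM in the control cells. The part of AHR in the gained sites was not tested, as no library with an antiserum to AHR was analysed here.

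By gene family, gained sites lay within 5 kb of 2 of 82 cytosolic ribosomal protein genes (2.44%, interval 0.67% to 8.46%), beside 11.1% of all protein-coding genes. A HIF-1α window lay within 5 kb of 34 of the ribosomal protein genes (41.5%) and of 23.1% of all protein-coding genes. The rule removed windows that share a base with one, so the low share may in part be set by the rule, which was not tested. For initiation factor genes the share with a HIF-1α window was 39.3% and that with a gained site is given next. Gained sites lay at 39 of 534 ZNF genes (7.30%), 36 of 379 SLC carriers (9.5%), 6 of 78 mitochondrial ribosomal proteins (7.69%), 4 of 48 NDUF genes (8.33%), 5 of 49 proteasome genes (10.2%), 5 of 56 translation initiation factors (8.93%) and 4 of 69 histone genes (5.80%). Outside the cytosolic ribosomal proteins and the ZNF genes, the interval of each family included the share of all protein-coding genes. Of all 2055 tested genes with a gained site within 5 kb, edgeR with the block called 132 higher and 46 lower. Among all 14225 genes tested, with or without such a site, it called 5.41% higher and 2.55% lower. It called 3 of the 6 mitochondrial ribosomal genes lower (MRPL14, MRPL20 and MRPL41) and 2 of the 4 NDUF genes (NDUFAB1 and NDUFAF6), and none of either family higher. MRPL14 had 39.5, 39.3 and 38.6 CPM in the re-expressing and 51.3, 65.1 and 98.5 CPM in the control cells, a log2 fold change of −0.82 (adjusted p = 0.0491, edgeR with the block). Of the 39 ZNF genes 5 were called higher (ZNF292, ZNF331, ZNF470, ZNF532 and ZNF558) and 0 lower, and of 35 tested SLC genes 3 were called higher (SLC2A13, SLC35A3 and SLC4A7) and 0 lower. Among all 2055 tested genes with a gained site, too, more were called higher (132) than lower (46). SLC4A7, a bicarbonate cotransporter, had 89.2, 119 and 137 CPM in the re-expressing and 40.1, 45.9 and 30.6 CPM in the control cells, a log2 fold change of 1.59 (adjusted p = 0.0308, edgeR with the block). The families were fixed with the design, but the genes named from them were picked out after their values were seen, and none of these calls was made without the block. Calls among the genes of each family without a gained site were not counted. A change of a whole family can therefore not be told apart from one at these sites.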

How the data were processed

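ChIP-seq peak windows of the HIF subunits (1 library per antiserum and cell pool, 7 lists) and RNA-seq counts (3 libraries in each of 3 pools) were taken as deposited. For the ChIP-seq lists the authors aligned reads to hg19 with BWA, kept reads with a MapQ of at least 15 and called peaks with T-PIC and MACS, per the study's methods and the submitters' processing notes. Each deposited window is 2500 bp wide with no score, and libraries were not pooled per the labels. The authors aligned the RNA-seq reads with TopHat2 2.0.8b and made whole-number counts per gene with HTSeq 0.5.4p3 on UCSC genes, and the deposited counts are not normalised. The setting for strand is not given in the sources used here.

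Windows were compared by position (at least 1 shared base) in Python with numpy 2.4.6, pandas 2.3.3 and pysam 0.24.0. Start sites and sequence came from GRCh37, whose chromosome names and lengths fit the windows. Motifs were searched on both strands in the 300 bases around each midpoint and in flanks centred 1000 bp away. Shares carry 95% Wilson intervals, differences Newcombe intervals, and cores per CpG an interval from the ratio estimator over windows, all of which cover counting error only. The members and gene lists were chosen with earlier results of these data known.

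Counts were tested in R 4.3.3 with edgeR 4.0.16 (filterByExpr, TMM, quasi-likelihood test over all 9 libraries, Benjamini-Hochberg adjustment, threshold 0.05), with DESeq2 1.42.0 as an alternative, and scripts were tested on simulated data. Of 23441 symbols, 20654 matched the annotation, 1366 matched through a RefSeq synonym and 1421 did not. The labels do not say whether replicates came from separate infections or cultures, so p-values may measure technical spread only. Deviations from the group means correlated at 0.348 to 0.652 in the 9 pairs with the same replicate number and at −0.478 to 0.0281 in the 18 other pairs. Deviations within a pool sum to 0, so the values of the other pairs follow in part from those of the first and are no separate evidence. The numbers were taken to pair the libraries, and a fit that takes this number as a block is given beside each count it changes. Genes were named by a rule (adjusted p under 0.05 with the block, since none passed without it, a level of 5 CPM or more on average in whichever group was higher, and separate ranges in both groups), taking the 10 largest rises and 8 largest falls, beside lists of HIF subunits and bHLH-PAS partners, AHR targets and HIF targets, and gene families that were counted. Alternatives were other definitions of overlap, start site and search width, the block, DESeq2, its size factors, no filter and leaving out each library.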

Additional observations from a re-analysis of the deposited data

How the results depend on the processing

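The number of sites gained without HIF-α was 3292 when windows counted as shared only with midpoints at most 250 bp apart, and the share of HIF-1β windows in the HIF-2α overexpressing cells was then 2.33%. Within 5 kb of a start site lay 91.2% counting protein-coding start sites only and 87.0% with 1 start site per gene. Searching 100 or 300 bp to either side, an HRE core was found in 52.1% or 87.2% and an AP-1 motif in 1.34% or 4.17%. Each of these alternatives changes what is counted, and its part in the shifts was not tested. No stricter peak threshold was run, because the lists hold no score.

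After re-expression of HIF-1α, the replicate block raised the calls over all genes from 0 to 769 higher and 363 lower and at the gained sites to 112 and 34, while DESeq2 gave 490 and 269, and 75 and 30. For HIF-2α overexpression the block gave 16 higher and 22 lower over all genes and 3 lower at the sites, DESeq2 35 and 25, and 3 and 4, and dropping the filter 1 higher over all genes. With the block and every gene within 10 kb, a setting added after seeing the data, 52 were lower after re-expression of HIF-1α and 1 was higher in the HIF-2α overexpressing cells. Leaving out each library in turn with the block moved the calls after re-expression of HIF-1α between 0 and 1333 higher and 0 and 1075 lower over all genes, and between 0 and 185 higher and 0 and 115 lower at the sites, with the highest counts without control replicate 1. In the HIF-2α overexpressing cells, where leaving out libraries with the block was also added after seeing the data, the ranges were 1 to 59 and 1 to 54 over all genes and 0 to 5 and 0 to 10 at the sites, and without the block 0 to 2 higher over all genes. The cause of these shifts was not tested. No direction of a named gene reversed in the alternatives run. The spread between 3 libraries limits the gene calls, and 1 ChIP-seq library per antiserum and pool leaves the windows without a replicate check.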
